A study of Mus musculus with 8 samples.

Results

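The 10 genes described here make, import or answer to the small organic solutes with which cells balance osmotic pressure. They were picked by symbol from the 53700 genes of the count table: Akr1b3, Slc5a3, Slc6a6, Csad, Slc38a2, Hspa4l, Hspa1a, Hspa1b, Sgk1 and S100a4. Of these, 9 were among the 12132 genes with enough counts to test. Hspa1b was not, and is given by its counts only.

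Polyadenylated RNA was sequenced from pooled mouse bone marrow cells, with 1 library for each of 8 combinations of cell type and donor genotype. Haematopoietic stem cells (HSC, CD48- CD150+) and multipotent progenitors (MPP, CD48+ CD150-) were sorted from the LSK population. Marrow of the CD45.2 background had been transplanted into irradiated wild-type CD45.1 recipients, and the CD45.2+ cells of 5 mice were pooled for each library at 13 weeks. The genotypes were DKO (IFNAR1-deficient, and Nfat5 fl/fl with Vav-Cre), IFNAR (IFNAR1-deficient), N5 (Nfat5 fl/fl Vav-Cre) and WT (Nfat5 +/+ Vav-Cre). The WT donors thus carried the Cre that N5 donors carried, and the label of IFNAR names no Cre. Vav-Cre acts in the blood-forming lineage, and the wild-type hosts kept their own Nfat5 and Ifnar1 in the stroma of every group. DKO and N5 are called Nfat5-lost, IFNAR and WT Nfat5-intact, DKO and IFNAR Ifnar1-lost, and N5 and WT Ifnar1-intact, each by label.

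NFAT5, also known as TonEBP, is a Rel-family transcription factor that is activated when the surroundings of a cell become hypertonic. It is best known from the kidney medulla, where it raises the enzyme that makes sorbitol, the carriers of inositol, taurine and betaine, and several chaperones. These solutes draw water without disturbing proteins, so a cell can keep its volume without piling up salt. Type I interferon signals through a receptor of which Ifnar1 encodes a chain.

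The upstream sequences of Csad, Sgk1, Hspa1a and Hspa1b are shown because most of the results below turn on these 4 genes. RefSeq windows of 250 bases before the gene start on GRCm38.p6 were at hand for 8 of the 10 genes, 14 windows in all. There was none for Akr1b3 and Slc6a6, and sequence farther than 250 bases upstream was not searched. The counts themselves were made on another build, GRCm39. The capitals mark TGGAAA, the core that NFAT5 binds (TTTCCA where it lies on the other strand), and GAANNTTC or TTCNNGAA, the inverted repeats from which heat shock elements are built.
Csad, chr15:102189044-102189293, minus strand: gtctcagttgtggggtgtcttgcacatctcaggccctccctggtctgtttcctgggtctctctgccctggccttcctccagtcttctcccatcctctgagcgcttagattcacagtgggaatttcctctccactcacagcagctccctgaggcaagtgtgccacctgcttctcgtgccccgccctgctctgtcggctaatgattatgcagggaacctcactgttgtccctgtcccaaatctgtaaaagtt
Csad, chr15:102205053-102205302, minus strand: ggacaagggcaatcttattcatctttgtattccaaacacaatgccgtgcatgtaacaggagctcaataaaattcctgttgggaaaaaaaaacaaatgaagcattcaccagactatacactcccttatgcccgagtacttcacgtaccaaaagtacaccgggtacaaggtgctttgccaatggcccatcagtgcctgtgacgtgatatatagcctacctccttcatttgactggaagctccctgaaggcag
Sgk1, chr10:21881934-21882183, plus strand: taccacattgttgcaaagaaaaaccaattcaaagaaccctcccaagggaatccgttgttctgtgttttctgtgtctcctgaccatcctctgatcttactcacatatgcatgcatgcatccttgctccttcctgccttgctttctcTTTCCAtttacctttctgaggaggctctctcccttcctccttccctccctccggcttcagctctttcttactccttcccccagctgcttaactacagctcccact
Sgk1, chr10:21993640-21993889, plus strand: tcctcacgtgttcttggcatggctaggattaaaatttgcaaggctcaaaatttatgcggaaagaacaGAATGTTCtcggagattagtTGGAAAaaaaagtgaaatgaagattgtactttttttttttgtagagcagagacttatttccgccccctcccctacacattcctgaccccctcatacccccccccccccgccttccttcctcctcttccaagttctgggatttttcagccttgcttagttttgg
Hspa1a, chr17:34972157-34972406, minus strand: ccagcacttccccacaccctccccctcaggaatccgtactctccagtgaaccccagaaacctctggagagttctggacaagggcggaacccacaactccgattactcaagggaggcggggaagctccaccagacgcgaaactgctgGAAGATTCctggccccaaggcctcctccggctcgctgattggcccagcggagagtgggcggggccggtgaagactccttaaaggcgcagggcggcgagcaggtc
Hspa1b, chr17:34959239-34959488, minus strand: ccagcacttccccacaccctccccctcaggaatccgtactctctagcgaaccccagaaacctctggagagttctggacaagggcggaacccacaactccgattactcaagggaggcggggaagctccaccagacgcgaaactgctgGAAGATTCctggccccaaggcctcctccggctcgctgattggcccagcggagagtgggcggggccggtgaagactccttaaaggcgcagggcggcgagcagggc

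TGGAAA was found on either strand in 2 of the 14 windows, both of Sgk1, and in none of its 4 other windows. Of all 32817 RefSeq windows of the same length, 18.6% held it. The longer TonE consensus, which contains this core, was in none of the 14 windows and in 4.31% of all windows. Neither Csad window held any of these motifs. The windows of Hspa1a and Hspa1b were identical at 247 of 250 bases, and each held GAANNTTC at the same place. GAANNTTC was also in 2 of the 6 Sgk1 windows, of which 1, not shown above, held TTCNNGAA too. That repeat was in 6.69% of all windows, and TTCNNGAA in 7.16%. The heat shock element made by joining the 2 repeats was in none of the 14 windows and in 0.466% of all windows. A match describes the letters only and is not evidence of binding.

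Total counts ran from 28871693 to 47205950 per library, and 13510 to 14781 genes had a count. Levels are given as CPM, each count set against its library's TMM-scaled total. Slamf1, which encodes CD150, lay at 52.2 to 89.97 CPM in HSC and at 0 to 0.0275 CPM in MPP. Cd48 lay at 0 to 6.36 CPM in HSC and at 202 to 284 CPM in MPP. RNA of Nfat5 and of Ifnar1 did not sort by genotype label. Nfat5 had 35.5 and 22.7 CPM in HSC labelled DKO and N5, against 3.12 and 33.2 CPM in those labelled IFNAR and WT. In MPP it had 11.5 and 7.69 CPM in DKO and N5, against 0.193 and 5.59 CPM in IFNAR and WT. Ifnar1 had 35.1 and 113 CPM in HSC labelled DKO and IFNAR, against 126 and 122 CPM in N5 and WT. Its MPP libraries had 125 and 43.8 CPM in DKO and IFNAR, against 87.9 and 37.2 CPM in N5 and WT. The counts are summed over each gene, and the labels do not say which part was removed, so they check neither deletion. Nfat5 RNA was lowest in IFNAR in both cell types, at 122 reads in HSC and 7 in MPP, although IFNAR is Nfat5-intact by label. The reason was not tested. IFNAR is the intact library of each DKO over IFNAR pair. Every direction below rests on the labels.

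Each group holds 1 library. Nfat5 loss was therefore tested over 4 libraries against 4, with cell type and the Ifnar1 label as terms. The error came from interactions that this model omits, so p-values do not measure the spread between pools of the same group. In bulk libraries, fewer cells of a type and less RNA per cell cannot be told apart. The log2 fold change fitted by edgeR for Nfat5 loss was below 0 for 8 of the 9 tested genes, with a median of -1.14, against 48.4% and a median of 0.02 over all tested genes. Of these 8, Slc5a3, Slc6a6 and Hspa4l were lower in the Nfat5-lost library of only 2 of 4 pairs. None of the 9 was called at an adjusted p of 0.05, and 0% of all tested genes were called. At an unadjusted p below 0.05 stood Csad and Sgk1, 2 of 9, against 338 genes or 2.79% of all tested. Csad, Sgk1 and S100a4 were lower in 4 of 4 pairs of Nfat5-lost and Nfat5-intact libraries of the same cell type and Ifnar1 label, and 5.35% of tested genes were. None of the 10 genes was higher in all 4 pairs, which 5.79% of tested genes were. The 4 pairs hold only 2 contrasts of genotype, N5 with WT and DKO with IFNAR, each seen in HSC and in MPP. Pairs of the same genotypes are thus not independent evidence.

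**Figure D1:**
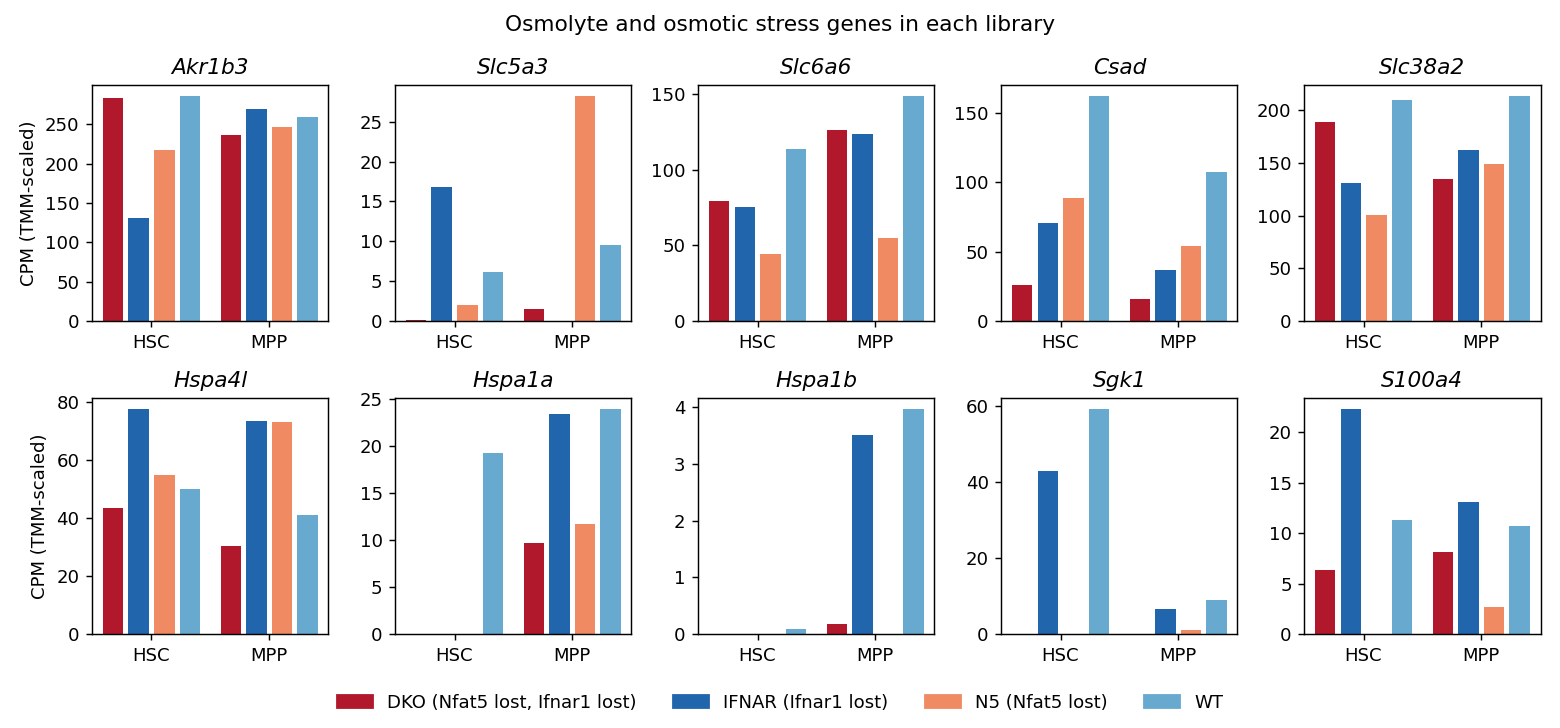
Level of each of the 10 genes in CPM (linear axis from 0, own scale per gene) in the 4 HSC and 4 MPP libraries, 1 bar per library and coloured by genotype. Csad is lowest in the DKO bar of each cell type, at 25.6 and 15.6 CPM, and Sgk1 is at 0 in both Nfat5-lost HSC libraries.

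Csad encodes cysteine sulfinic acid decarboxylase, which makes hypotaurine, the precursor of taurine. It had 25.6 and 88.6 CPM in HSC labelled DKO and N5, against 70.9 and 162 CPM in IFNAR and WT. The MPP values were 15.6 and 54.0 CPM in DKO and N5, against 36.9 and 107 CPM in IFNAR and WT. Within each cell type the order was the same: DKO lowest, then IFNAR, then N5, with WT highest. Each step of that order in HSC and in MPP exceeded the counting error, since the 95% Poisson intervals of neighbouring libraries did not overlap. The counts behind these values ran from 552 to 5581 reads, and such intervals cover counting error only.

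In the pairs that differ in the Nfat5 label, Csad was lower by 2.77-fold (DKO over IFNAR) and 1.83-fold (N5 over WT) in HSC. In MPP it was lower by 2.36-fold and 1.99-fold. The 4 folds thus lay close to each other, although the 2 groups overlapped, averaging 46.0 ± 32.8 CPM in Nfat5-lost and 94.2 ± 53.4 CPM in Nfat5-intact libraries (SD, n = 4 each). The fitted log2 fold change was -1.14 (SE 0.24), with an unadjusted p of 0.00259 and an adjusted p of 1 by edgeR. It was the gene of rank 8 by p among 12132. DESeq2, run on the same design, called it with an adjusted p of 3.70e-05 among 1.37% of tested genes, and the other alternative settings gave 0.869 to 1.

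Csad was also lower in each pair that differs in the Ifnar1 label. It was lower by 3.46-fold (DKO over N5) and 2.28-fold (IFNAR over WT) in HSC, and by 3.46-fold and 2.91-fold in MPP. Ifnar1-lost libraries averaged 37.3 ± 24.04 CPM and Ifnar1-intact ones 103 ± 45.0 CPM (SD, n = 4 each). The log2 fold change was -1.58 (SE 0.24), with an unadjusted p of 0.00049 and an adjusted p of 0.992 by edgeR, rank 6 among 12132. DESeq2 gave an adjusted p of 1.53e-10, where it called 1.92% of tested genes, and the other alternative settings 0.243 to 1. Across both labels Csad was lower in 8 of 8 pairs, as were 63 tested genes or 0.519%. The 8 pairs share libraries, so the 2 labels are not separate evidence. The interaction of the labels for Csad was -0.43 on the log2 scale (SE 0.48, unadjusted p 0.415, adjusted p 1 by edgeR), and that between Nfat5 label and cell type was -0.07 (SE 0.50, unadjusted p 0.900).

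Slc6a6 encodes the carrier that imports taurine. It had 79.2 and 44.2 CPM in HSC labelled DKO and N5, against 75.6 and 114 CPM in IFNAR and WT. In MPP, its level was 126 and 54.6 CPM in DKO and N5, against 124 and 149 CPM in IFNAR and WT. The N5 library was thus the lowest of its cell type in both HSC and MPP, while DKO stood beside IFNAR. Over all 8 libraries Slc6a6 averaged 76.1 ± 36.6 CPM in Nfat5-lost and 115 ± 30.3 CPM in Nfat5-intact ones (SD, n = 4 each), a log2 fold change of -0.68 (SE 0.35, unadjusted p 0.101, adjusted p 1 by edgeR). The fit on Ifnar1-intact libraries gave -1.40 and that on Ifnar1-lost libraries 0.06. The interaction of the 2 labels was 1.45 (SE 0.40, unadjusted p 0.0140, adjusted p 1 by edgeR). By that test 0% of genes were called, and 1 of 9 tested members stood below an unadjusted p of 0.05, against 3.33% of all genes.

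Akr1b3 encodes aldose reductase, which turns glucose into sorbitol. It had 283 and 217 CPM in HSC labelled DKO and N5, against 131 and 286 CPM in IFNAR and WT. Among MPP libraries it had 237 and 247 CPM in DKO and N5, against 270 and 260 CPM in IFNAR and WT. The MPP libraries stood within a narrow band, and the low HSC library was IFNAR. Akr1b3 alone of the 9 had a fitted log2 fold change above 0 for Nfat5 loss, 0.08 (SE 0.26, unadjusted p 0.765, adjusted p 1 by edgeR). Without the HSC library labelled IFNAR it was -0.17, and without the HSC library labelled DKO -0.11.

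Slc5a3 encodes the sodium-coupled carrier of myo-inositol. It had 0.106 and 1.96 CPM in HSC labelled DKO and N5, against 16.8 and 6.17 CPM in IFNAR and WT. MPP levels were 1.56 and 28.2 CPM in DKO and N5, against 0.0550 and 9.50 CPM in IFNAR and WT, and the value of IFNAR stands for 2 reads. In HSC both Nfat5-lost libraries were below both intact ones, while in MPP each lost library was above its partner. The fitted log2 fold change was -6.18 in HSC (SE 2.79, unadjusted p 0.0758, adjusted p 0.895 by edgeR) and 2.31 in MPP (SE 2.27, unadjusted p 0.354, adjusted p 1). The difference between cell types was -8.49 (SE 3.71, unadjusted p 0.0690, adjusted p 1 by edgeR). No gene was called for that difference (0%), and none of the 9 members stood below an unadjusted p of 0.05, against 4.42% of all genes. Slc5a3 lies at the same locus as Mrps6, a gene of the mitochondrial ribosome, and 1.01% of its 50-base stretches also occur in Mrps6 transcripts. Mrps6 had 63.9 and 27.3 CPM in HSC labelled DKO and N5, against 33.0 and 27.7 CPM in IFNAR and WT, an order unlike that of Slc5a3.

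Slc38a2 encodes SNAT2, a sodium-coupled importer of neutral amino acids that hypertonic cells raise. It had 188 and 101 CPM in HSC labelled DKO and N5, against 131 and 209 CPM in IFNAR and WT. In MPP the libraries had 135 and 149 CPM in DKO and N5, against 162 and 213 CPM in IFNAR and WT. It was lower in 3 of 4 pairs, and in MPP the Nfat5-lost libraries lay below both intact ones. The log2 fold change was -0.31 (SE 0.27, unadjusted p 0.300, adjusted p 1 by edgeR), and 0.14 in Ifnar1-lost libraries alone.

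Hspa4l encodes a chaperone of the HSP110 family, known in kidney cells as osmotic stress protein Osp94. It had 43.6 and 54.7 CPM in HSC labelled DKO and N5, against 77.6 and 50.1 CPM in IFNAR and WT. In MPP it had 30.3 and 73.1 CPM in DKO and N5, against 73.4 and 41.0 CPM in IFNAR and WT. In both cell types DKO was the lowest library and N5 was above WT. The log2 fold change was -0.27 (SE 0.44, unadjusted p 0.563, adjusted p 1 by edgeR), and 0.49 in Ifnar1-intact libraries alone. The interaction of the 2 labels was -1.54 (SE 0.67, unadjusted p 0.0678, adjusted p 1).

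Hspa1a and Hspa1b encode the inducible HSP70, and in mouse kidney cells Hspa1b is a known target of NFAT5. Their transcripts are near copies: 58.8% of the 50-base stretches of Hspa1a also occur in Hspa1b, and 62.3% of those of Hspa1b in Hspa1a, so the split of reads between them is uncertain. Hspa1a had 0 reads in the HSC libraries labelled DKO, IFNAR and N5, against 19.3 CPM in WT. Its MPP libraries had 9.74 and 11.7 CPM in DKO and N5, against 23.4 and 23.96 CPM in IFNAR and WT. In MPP both Nfat5-lost libraries were thus below both intact ones, by 2.40-fold (DKO over IFNAR) and 2.05-fold (N5 over WT). In HSC the single library with Hspa1a was WT, and IFNAR, which is Nfat5-intact, had none.

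Hspa1b had 0.170 and 0 CPM in the MPP libraries labelled DKO and N5, against 3.52 and 3.97 CPM in IFNAR and WT, or 6 and 0 reads against 128 and 120. In HSC it had 3 reads in WT and 0 in the other libraries. As for Hspa1a, both Nfat5-lost MPP libraries were below both intact ones. The log2 fold change of Hspa1a was -4.35 (SE 3.47, unadjusted p 0.255, adjusted p 1 by edgeR), and with the reads of both genes summed it was -4.46 (unadjusted p 0.233).

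Sgk1 encodes the serum- and glucocorticoid-regulated kinase, which cell shrinkage induces and which controls ion channels and carriers. It had 0 reads in the HSC libraries labelled DKO and N5, against 43.0 and 59.3 CPM in IFNAR and WT, or 1683 and 2045 reads. The MPP values were 0 and 1.16 CPM in DKO and N5, against 6.49 and 8.87 CPM in IFNAR and WT. All 4 Nfat5-lost libraries were below all 4 intact ones. With a floor of 3 reads a library, which allows for counting error only, Sgk1 was at least 634-fold lower in Nfat5-lost than in Nfat5-intact HSC libraries. In MPP it was at least 76.4-fold lower in DKO than in IFNAR, and 7.65-fold lower in N5 than in WT.

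Sgk1 averaged 0.290 ± 0.579 CPM in Nfat5-lost and 29.4 ± 26.0 CPM in Nfat5-intact libraries (SD, n = 4 each). The fitted log2 fold change, which depends on the prior count, was -8.78 (SE 3.43, unadjusted p 0.0409, adjusted p 1 by edgeR). DESeq2 called it with an adjusted p of 3.97e-04, and the other alternative settings gave 0.869 to 1. It was 2-fold lower or more in 4 of 4 pairs, the only one of the 10 genes to be so, and 0.321% of tested genes were. A pattern of 0 reads in both Nfat5-lost HSC libraries with 10 CPM or more in both intact ones was held by 32 tested genes, 0.264%. The opposite pattern was held by 50, 0.412%, so both directions occurred. Sgk1 in IFNAR was 0.726 times its level in WT in HSC and 0.732 times in MPP.

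S100a4 encodes a small calcium-binding protein of motile cells, which NFAT5 raises in kidney cells under osmotic stress. It had 6.38 and 0 CPM in HSC labelled DKO and N5, against 22.3 and 11.3 CPM in IFNAR and WT. In MPP, its level was 8.13 and 2.67 CPM in DKO and N5, against 13.1 and 10.7 CPM in IFNAR and WT. N5 was the lowest library of each cell type and IFNAR the highest, and all Nfat5-lost libraries were below all intact ones. Means were 4.29 ± 3.66 CPM in Nfat5-lost and 14.4 ± 5.38 CPM in Nfat5-intact libraries (SD, n = 4 each), a log2 fold change of -2.37 (SE 1.79, unadjusted p 0.233, adjusted p 1 by edgeR). Sgk1 and S100a4 were thus the 2 of 10 genes whose Nfat5 groups did not overlap, and 1.01% of tested genes had that separation with the lost group lower. None had it with the lost group higher, as 1.26% of tested genes did.

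**Figure D2:**
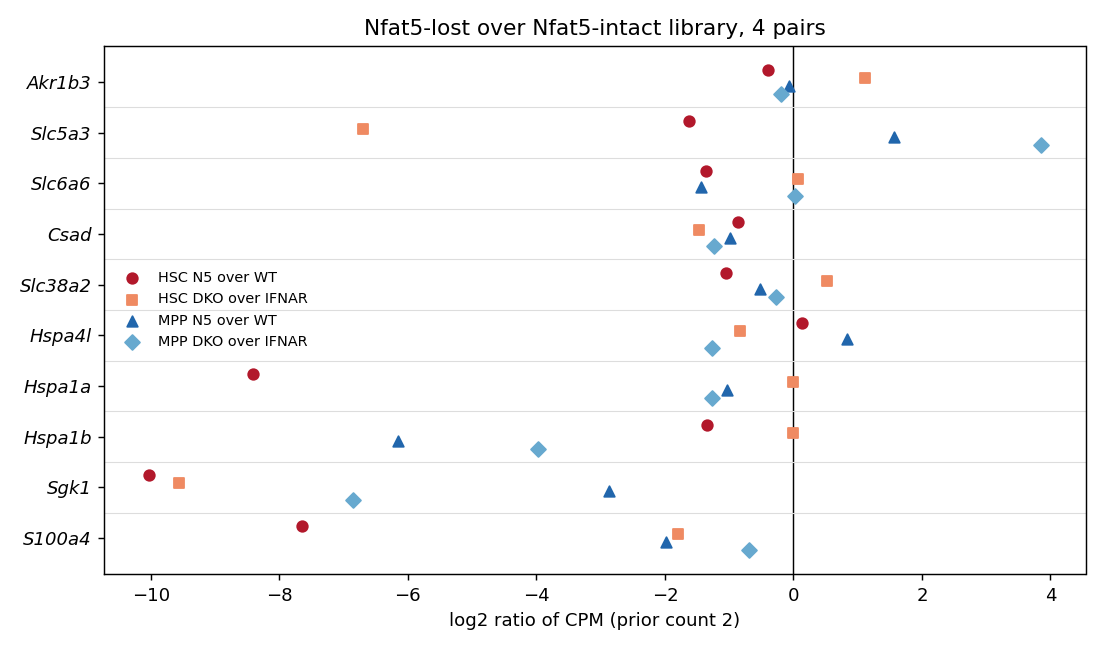
Log2 ratio of CPM (x axis, prior count 2) of the Nfat5-lost over the Nfat5-intact library for each of the 10 genes (rows), with 1 marker for each of 4 pairs. All 4 markers of Csad, Sgk1 and S100a4 lie left of 0, those of Csad between -1.47 and -0.87, while the HSC and MPP markers of Slc5a3 lie on opposite sides.

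Within HSC alone, 8 of 9 tested genes had a fitted log2 fold change below 0 for Nfat5 loss, as did 48.3% of all tested genes, with a median of -1.18, also with Sgk1 and Hspa1a at their bounds, against 0.03 over all genes. The adjusted p was 0.884 for Sgk1 and 0.895 for Csad by edgeR, and 0% of genes were called. At an unadjusted p below 0.05 stood these 2 of 9, Sgk1 at 0.0186 and Csad at 0.0207, against 5.28% of all tested genes. Slc5a3, Sgk1 and S100a4, 3 of 9, had both lost libraries below both intact ones, and so did 15.6% of all genes. None had them above, as 17.3% of genes did. DESeq2 called Csad, Hspa1a, Sgk1 and Slc5a3 in HSC, 4 of 9, and 6.83% of all tested genes. The call of Hspa1a rests on the WT library: without it, the fitted log2 fold change of Hspa1a was -0.06.

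Within MPP, 8 of 9 tested genes had a fitted change below 0, as did 50.9% of all tested genes, with a median of -0.66, against -0.01 over all genes. Csad, at -1.11 (SE 0.36, adjusted p 1 by edgeR), alone stood below an unadjusted p of 0.05, with 0.0252, against 2.27% of all tested genes, and 0% were called. DESeq2 called Csad in MPP, 1 of 9, and 2.13% of all tested genes. Akr1b3, Slc38a2, Hspa1a, Sgk1 and S100a4, 5 of 9, and the untested Hspa1b had both lost libraries below both intact ones. Such a separation was found in 16.5% of all genes, and the opposite one, held by none of the 10, also in 16.5%. The separation of Akr1b3 was small, 242 ± 6.87 CPM in Nfat5-lost and 265 ± 7.15 CPM in Nfat5-intact MPP libraries (SD, n = 2 each). That of Hspa1a was 10.7 ± 1.38 CPM in lost and 23.7 ± 0.404 CPM in intact MPP libraries (SD, n = 2 each).

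**Figure D3:**
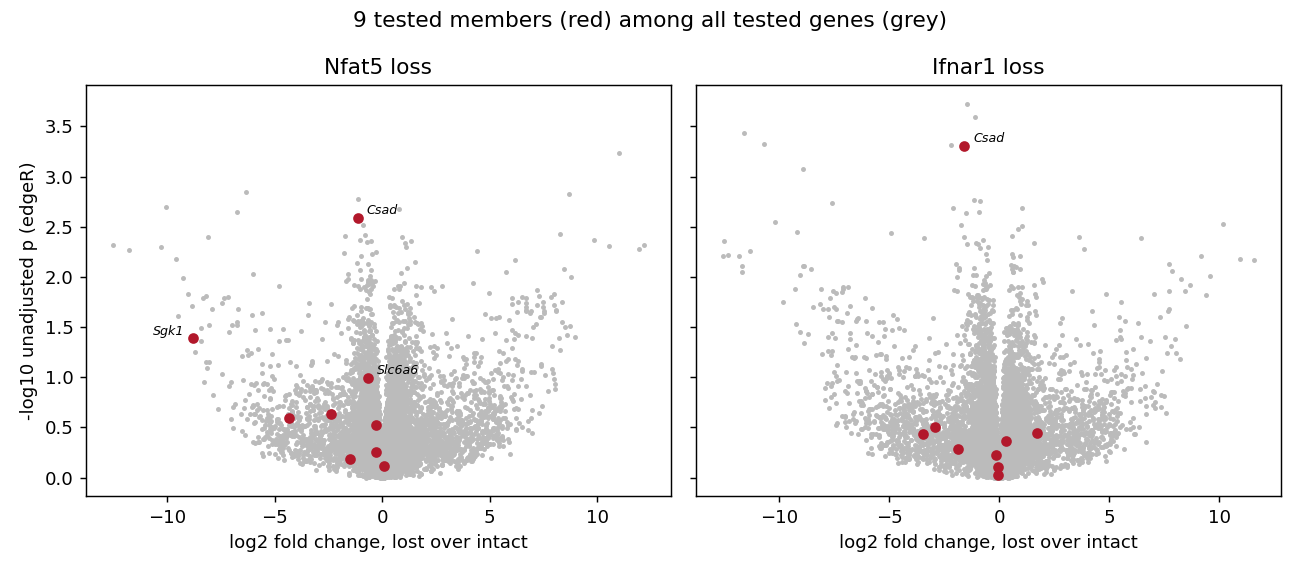
Fitted log2 fold change (x axis, lost over intact) against -log10 of the unadjusted edgeR p (y axis) for Nfat5 loss on the left and Ifnar1 loss on the right, with the 9 tested genes in red over all 12132 tested genes in grey. Csad lies near the top of both panels, and of the other red points only Sgk1 on the left has an unadjusted p below 0.05.

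For Ifnar1 loss, 7 of 9 tested genes had a fitted log2 fold change below 0, as did 50.4% of all tested genes, with a median of -0.15, against -0.01 over all genes. Csad alone stood below an unadjusted p of 0.05, against 3.28% of all tested genes, and 0% were called. Csad alone was lower in 4 of 4 pairs, where 6.16% of genes were, and it was 2-fold lower or more in all 4, where 0.602% were. S100a4 alone was higher in 4 of 4 pairs, where 5.90% were. S100a4 averaged 12.5 ± 7.13 CPM in Ifnar1-lost and 6.17 ± 5.70 CPM in Ifnar1-intact libraries (SD, n = 4 each), a log2 fold change of 1.72 (SE 1.74, unadjusted p 0.359, adjusted p 1 by edgeR). No gene of the 10 had Ifnar1 groups that did not overlap, lower or higher, as 1.37% and 1.01% of tested genes did.

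HSC and MPP of the same genotype were compared with genotype as a block. Of the 10 genes Csad was higher in HSC in 4 of 4 genotypes, by 1.51-fold to 1.92-fold, and 9.81% of tested genes were. Its log2 fold change was 0.74 (SE 0.24, unadjusted p 0.0265, adjusted p 0.407 by edgeR). Slc6a6 and Hspa1a were lower in HSC in 4 of 4 genotypes, where 12% of tested genes were. The log2 fold change of Slc6a6 was -0.52 (SE 0.20, unadjusted p 0.0469, adjusted p 0.488) and that of Hspa1a -9.95 (SE 3.68, unadjusted p 0.0406, adjusted p 0.467). The size for Hspa1a rests on 0 reads in HSC labelled DKO, IFNAR and N5, and alternative settings gave -11.99 to -1.83. In WT, Hspa1a was 1.24-fold lower in HSC than in MPP. Csad, Slc6a6 and Hspa1a, 3 of 9, stood below an unadjusted p of 0.05, against 10.1% of all tested genes. None was among the 0.0165% called. DESeq2 called the same 3 of 9, and 15.5% of all tested genes. RNA of Csad, 1 of the enzymes that make hypotaurine, was thus higher in HSC than in MPP of each genotype. RNA of the taurine importer was lower, and neither passed edgeR's threshold. Ado, another gene of hypotaurine synthesis, had a log2 fold change of -0.76 (SE 0.34, unadjusted p 0.0711, adjusted p 0.544 by edgeR).

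Sgk1 was 6.68-fold higher in HSC than in MPP in WT and 6.62-fold higher in IFNAR. In N5 it was at least 11.8-fold lower in HSC, and in DKO it had 0 reads in both. None of the 10 genes had HSC and MPP libraries that did not overlap, as 5.65% of tested genes did with HSC lower and 4.73% with HSC higher. None was 2-fold lower or more in HSC in all 4 genotypes, as 2.21% were.

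Levels of different genes were set side by side as CPM per kilobase of exon, with exon lengths from a GENCODE annotation of GRCm38. The length is the union of all annotated exons of a gene. It can exceed that of any single transcript, so the order of genes depends on this choice. In HSC the order of means was Akr1b3 at 27.3 ± 8.66, Csad at 22.6 ± 14.8, Slc38a2 at 17.8 ± 5.68, S100a4 at 17.1 ± 16.1 and Slc6a6 at 9.25 ± 3.37 CPM per kilobase (SD, n = 4 each). Neighbours in that order lay within the spread of the libraries. Sgk1, Hspa4l, Hspa1a, Slc5a3 and Hspa1b followed, with means between 0.00775 and 5.21 CPM per kilobase. In MPP Akr1b3 was the highest at 30.2 ± 1.72 CPM per kilobase, ahead of Slc38a2 at 18.7 ± 3.87, and their libraries did not overlap. By this measure the sorbitol enzyme was thus the most abundant of the 10 in MPP, while the inositol carrier Slc5a3 lay at 0.573 in HSC and 0.901 CPM per kilobase in MPP.

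**Figure D4:**
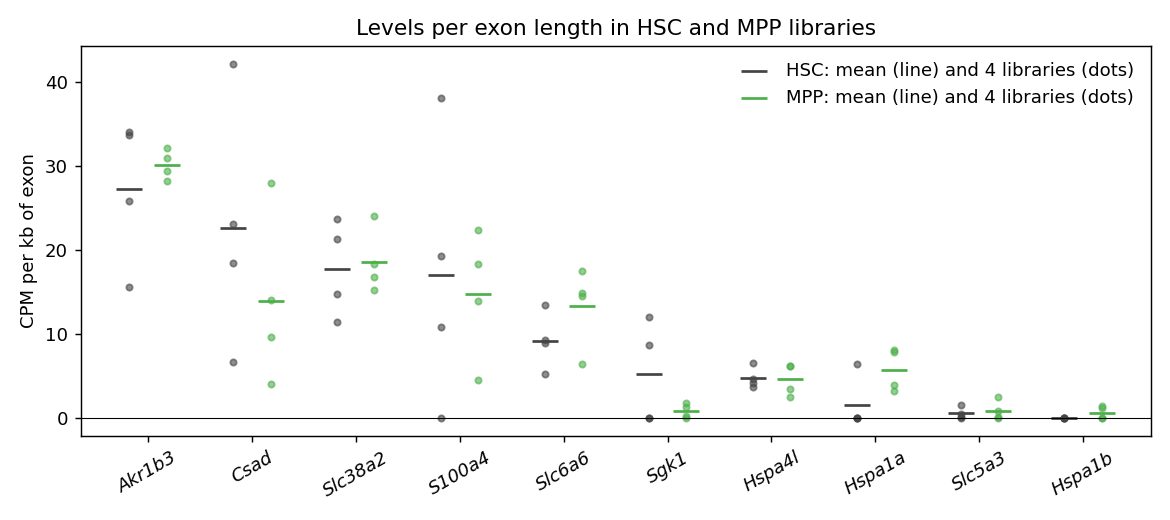
CPM per kilobase of exon (y axis, linear) of the 10 genes, ordered by their HSC mean, with a dot for each of 4 HSC and 4 MPP libraries and a line at the mean. Akr1b3 leads in both cell types with means of 27.3 and 30.2, and the libraries of Csad and S100a4 spread over a wide range.

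The wider pathways, in 10 lists of osmolyte, chaperone, kinase, S100 and cell volume genes that include these members, held 102 genes, of which 77 were tested. For Nfat5 loss 43 of the 77 had a fitted log2 fold change below 0 and 34 above, with a median of -0.09, and none was called. Below an unadjusted p of 0.05 stood 4 of the 77, against 2.79% of all tested genes. They were Slc36a1 and Pnpla7 beside Csad and Sgk1, which are described above, each with an adjusted p of 1 by edgeR. Slc36a1 encodes a proton-coupled carrier of small amino acids. It had 0 and 0 CPM in HSC labelled DKO and N5, against 0.102 and 1.304 CPM in IFNAR and WT. Among MPP libraries it had 0.0566 and 0.386 CPM in DKO and N5, against 5.89 and 17.1 CPM in IFNAR and WT. Its log2 fold change was -6.33 (SE 1.17, unadjusted p 0.00143), and HSC levels were near 0 under either label.

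Of 6 tested genes for taurine and betaine, 4 were lower and 2 higher, with a median of -0.54. Ado, whose enzyme makes hypotaurine by another route, was among the higher at 0.63 (SE 0.31, unadjusted p 0.0870). The betaine carrier Slc6a12 had 0 reads in all 8 libraries. Of 4 tested genes for glycerophosphocholine, 3 were lower, and Pnpla7, a lysophospholipase, had -0.85 (SE 0.34, unadjusted p 0.0427). Of 5 tested inositol genes 4 were lower, with the smallest p for Cdipt, which makes phosphatidylinositol, at -0.52 (unadjusted p 0.176). Of 5 tested polyol genes 2 were lower, with the smallest p for Sord, which oxidises sorbitol to fructose, at 0.29 (unadjusted p 0.193).

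The heat shock 70 and 110 family had 8 of 11 tested genes lower and a median of -0.17, with the smallest p for Hspa1a itself. Heat shock partners had 5 of 10 lower and a median of -0.01, with the smallest p for the co-chaperone Stip1 at -0.30 (unadjusted p 0.0552). Neutral amino acid carriers had 4 of 7 lower, with the smallest p for Slc38a1, a relative of Slc38a2, at 0.62 (unadjusted p 0.0602). SGK kinases and partners had 3 of 7 lower, with the smallest p for Sgk1. The S100 family had 3 of 8 lower, with the smallest p for S100a13 at 1.03 (unadjusted p 0.144). Volume regulation, which holds chloride channel and cotransporter genes, had 7 of 14 lower, with the smallest p for the urea carrier Slc14a1 at -0.79 (unadjusted p 0.0876).

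Summed CPM of marker lists differed between Nfat5-lost and Nfat5-intact libraries in places, and their part in the results was not tested. In HSC the 6 MPP markers summed to 265 to 294 CPM in lost and 494 to 576 CPM in intact libraries. Mpo of these had 0 and 47.0 CPM in DKO and N5, against 303 and 147 CPM in IFNAR and WT. Cd34 overlapped, with 221 and 247 CPM in DKO and N5, against 194 and 314 CPM in IFNAR and WT. Flt3 overlapped too. The 8 B cell markers summed to 34.7 to 61.4 CPM in lost and 85.4 to 119 CPM in intact HSC libraries. Cd79b had 24.1 and 34.7 CPM in DKO and N5, against 89.4 and 59.8 CPM in IFNAR and WT. Ighm overlapped, with 30.65 and 0 CPM in DKO and N5, against 15.99 and 25.65 CPM in IFNAR and WT. The 10 neutrophil markers summed to 622 to 630 CPM in lost and 583 to 586 CPM in intact HSC libraries. Elane of these went the other way, with 0 and 13.1 CPM in DKO and N5, against 100.5 and 37.3 CPM in IFNAR and WT. In MPP the 8 megakaryocyte markers summed to 109 to 172.5 CPM in lost and 50.3 to 51.0 CPM in intact libraries. Itga2b made up most of that sum, with 150 and 75.7 CPM in DKO and N5, against 26.05 and 37.6 CPM in IFNAR and WT. Pf4 and Gp9 overlapped between lost and intact MPP libraries. The 9 erythroid markers summed in MPP to 780 to 1001 CPM in lost and 1107 to 1151 CPM in intact libraries. The 8 HSC markers summed in MPP to 1209 to 1437 CPM in lost and 1138 to 1197 CPM in intact libraries. Kit made up most of that sum, with 907 and 1010 CPM in DKO and N5, against 880 and 773 CPM in IFNAR and WT. Mecom went the other way, with 53.15 and 60.8 CPM in DKO and N5, against 117 and 108 CPM in IFNAR and WT. Of the 11 T and NK cell markers, Nkg7 alone made up most of the sum in MPP, with 371 and 356 CPM in DKO and N5, against 290.5 and 315 CPM in IFNAR and WT. The 12 immediate early genes, which handling of cells can raise, summed in MPP to 337 to 391 CPM in lost and 401 to 432 CPM in intact libraries. In HSC they summed to 495 to 575 CPM in lost and 463 to 562 CPM in intact libraries and so overlapped. The monocyte and macrophage sums, the nearest for S100a4, overlapped in both cell types, and Lyz2 made up most of each. In both cell types N5, the lowest library for S100a4, also had the lowest such sum. It was 666 CPM against 756 to 1078 CPM in HSC, and 573 CPM against 931 to 1302 CPM in MPP. The neutrophil sum of N5 was the lowest in MPP, at 549 CPM, and the highest in HSC, at 630 CPM. Fcgr1 of the monocyte and macrophage list had 0 reads throughout. The T cell markers Cd3e, Cd3d, Cd3g and Trac, 4 of the 11 T and NK cell markers, also had 0 reads throughout. So did Cdh5, Col1a1, Lepr and Pdgfra, 4 of the 10 stroma and endothelium markers. The rest of both lists had reads in some libraries. Klrb1c, for example, had 26.05 CPM in HSC labelled WT, and Emcn had 75.6 CPM in HSC labelled DKO.

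Genes of the most similar pattern were taken by the Pearson correlation of log2 CPM over the 8 libraries, among about 8837 genes of 10 CPM or more on average, as a description. The closest to Csad were Ccdc127 (r = 0.957) and Dapp1 (r = 0.954). Dapp1 had 749 and 925 CPM in HSC labelled DKO and N5, against 921 and 1003 CPM in IFNAR and WT, a flatter course than that of Csad. The closest to Sgk1 were Tubd1 (r = 0.9753) and Zfp53 (r = 0.973), both with 0 reads in the Nfat5-lost HSC libraries. The closest to Hspa1a were Abcb6 (r = 0.991) and Spsb4 (r = 0.983), which were read in WT alone among HSC libraries. For the other 6 tested genes the best r was 0.934 to 0.993. Their closest genes were Zfp646 and Fryl for Akr1b3, Atl3 and Esd for Slc5a3, Prpf39 and Psmb6 for Slc6a6, Men1 and Tmem231 for Slc38a2, Ccdc167 and Crot for Hspa4l, and Zfp346 and Cdyl2 for S100a4. The points share the same 8 libraries and their scaling.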

How the data were processed

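Polyadenylated RNA of 8 pools was amplified with Smart-Seq2, per the labels' protocols; the method marks neither molecules nor strand, so overlapping and near-identical genes share reads to an unknown degree. The submitters' processing notes name RSEM 1.3.0, STAR 2.7.8a and GRCm39, and how these tools were combined is not given in the sources used here. What the authors deposited is a single table of raw counts, all whole numbers, covering 53700 genes.

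Here the 12132 genes that passed filterByExpr by cell type (99.5% of counts) were scaled by TMM and tested with edgeR 4.0.16 (glmQLFit and glmQLFTest, legacy method) in R 4.3.3, with Benjamini-Hochberg adjustment at 0.05 over all genes. The models for Nfat5 and for Ifnar1 loss held cell type and the other label as further terms (4 residual degrees of freedom). Fits within a cell type, interactions, and HSC against MPP with genotype as a block had 3. No group was replicated, so interactions that the models omit supply the error. CPM is the count over the TMM-scaled sum of tested genes. Pairs of libraries were compared by their CPM ratio (prior count 2 on the log2 scale), and a floor of 3 counts where a library had none. The scripts were tested on simulated data, with a pass mark only at a dispersion far below the common dispersions of 1.06 to 1.14 fitted here. That test thus does not show how many true changes would be found in these data. Alternatives were RLE scaling, no filter, 10 CPM in 4 libraries, DESeq2 1.42.0, limma-voom (limma 3.58.1), the bias-adjusted quasi-likelihood method, models without a term or block, subsets by Ifnar1 label, prior counts of 0.5 and 5, and leaving out each library.

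All 10 genes are named, with the gene of smallest p for Nfat5 loss in each of 10 pathway lists and the 2 genes of most similar pattern; the last left out Xist, Y-linked and predicted genes, pseudogenes and segments of antigen receptors. The genes and lists were chosen with earlier results of these data known. Exon lengths and shared 50-base stretches came from a GENCODE annotation of GRCm38 and its transcripts, and promoter windows from RefSeq.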

Additional observations from a re-analysis of the deposited data

Results flagged for a closer look

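Hspa1a had 665 reads in the HSC library labelled WT and 0 in DKO, IFNAR and N5, so the gap between WT and the nearest other library took the whole range, a ratio of 1. Hspa1b gave the same ratio of 1 from only 3 reads in WT, which does not separate WT from the others, since the 95% Poisson intervals overlap. The ratio is 1 whenever the other libraries are all at 0. Of 20 groups of 4 libraries checked, these 2 passed the limit of the gap ratio, which chance passes in about 1 in 20 groups of continuous values. No such rate was measured for groups with several zeros.

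Slc5a3 went opposite ways with the Nfat5 label in HSC and MPP, as both HSC pairs were lower and both MPP pairs higher in the Nfat5-lost library. The tested difference was -8.49 on the log2 scale (unadjusted p 0.0690, adjusted p 1 by edgeR).

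The Nfat5 pair ratios of Slc6a6 differed in sign by Ifnar1 label, although those of DKO over IFNAR were near 1. N5 was below WT in both cell types, at 0.388 times WT in HSC and 0.367 times WT in MPP, while DKO was 1.05 and 1.02 times IFNAR, with overlapping 95% Poisson intervals in both cell types. The interaction was 1.45 (unadjusted p 0.0140, adjusted p 1 by edgeR). For Hspa4l the signs were turned round: N5 was 1.09 times WT in HSC, with overlapping intervals, and 1.78 times WT in MPP, while DKO was 0.562 and 0.413 times IFNAR. Its interaction was -1.54 (unadjusted p 0.0678, adjusted p 1 by edgeR).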

How the results depend on the processing

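Counts of genes called over the whole table depended on the test. DESeq2, in place of 0 by edgeR, called 166 genes for Nfat5 loss, 829 for Nfat5 loss in HSC, 258 in MPP, 570 for its interaction with cell type, 393 for its interaction with the Ifnar1 label and 233 for Ifnar1 loss. For HSC over MPP, edgeR called 2, DESeq2 1880, limma-voom 156, the bias-adjusted method 107, the fit without the genotype block 207 and the filter of 10 CPM 23. Limma-voom called 1 gene for Ifnar1 loss and 1 for Nfat5 loss in MPP, the bias-adjusted method 1 for Ifnar1 loss, and the filter of 10 CPM 1 for Nfat5 loss in MPP. Leaving out 1 library gave 0 to 0 calls for HSC over MPP, and likewise 0 to 0 for every other comparison. The cause was not tested. Of 310 results for single genes under alternatives that keep all libraries or a subset by label, 290 kept their direction and side of the threshold, 11 passed the threshold, all with DESeq2, and 9 turned. Of 360 with 1 library left out, 322 kept both and 38 turned; none of Csad turned.

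The 9 that turned were S100a4 for HSC over MPP (0.19 with the bias-adjusted method, 0.21 with no block), Hspa4l for Ifnar1 loss (0.021 with the bias-adjusted method, 0.065 with limma-voom, 0.036 with no Nfat5 term) and, for Nfat5 loss, Akr1b3 (-0.23) and Hspa4l (0.49) in Ifnar1-intact libraries and Slc38a2 (0.14) and Slc6a6 (0.060) in Ifnar1-lost ones. With 1 library left out, the log2 fold change for Nfat5 loss ran from -0.17 to 0.28 for Akr1b3, -0.60 to 0.022 for Hspa4l and -3.93 to 1.23 for Slc5a3, against -1.23 to -1.03 for Csad and -13.15 to -6.26 for Sgk1. In HSC it ran from -0.27 to 0.98 for Akr1b3, -0.79 to 0.086 for Hspa4l and -0.92 to 0.38 for Slc38a2. In MPP it ran from -0.28 to 0.033 for Akr1b3, -3.03 to 0.85 for Hspa1a, -1.06 to 0.59 for Hspa4l and -2.49 to 0.047 for S100a4. For Ifnar1 loss it ran from -0.38 to 0.11 for Akr1b3, -0.28 to 0.28 for Hspa4l and -0.34 to 0.089 for Slc38a2. For HSC over MPP it ran from -0.36 to 0.074 for Akr1b3, -0.018 to 0.30 for Hspa4l, -1.66 to 0.16 for S100a4, -1.0002 to 2.52 for Sgk1 and -0.30 to 0.047 for Slc38a2. The genes lower in 4 of 4 Nfat5 pairs numbered 3 under RLE scaling too; a prior count cannot change that number.

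No paired analysis was possible by replicate number, because each group holds 1 library. The pairs and the genotype block match libraries by label only. With 1 library per group, variation between mice of a genotype cannot be separated from the labels. Sgk1, Hspa1a, Hspa1b, S100a4 and Slc5a3 had few or 0 reads in some libraries, which limits what their values show. Sgk1, Hspa1a and Hspa1b had 0 reads in the HSC library labelled DKO, the deepest at 47205950 counts. Why such libraries had few or 0 reads was not tested. A fold of Sgk1, Hspa1a or S100a4 against a library at 0 is a bound only, and for counting error alone.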
